A study of Mus musculus with 21 samples.

Results

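T and NK cell genes were followed through RNA-seq libraries of macrophages sorted from mouse kidney. The set held 44 genes chosen by symbol from a count table of 34236 symbols, and all 44 were found. They fall into 9 roles: the CD3 complex, coreceptors and other surface receptors, signalling proteins below the T cell receptor, costimulatory and checkpoint receptors, cytokine receptors, chemokine receptors, transcription factors, GIMAP GTPases, and cytotoxic and NK receptor genes. The mice were male C57BL/6J with no transgene or gene deletion named in the labels, 24 weeks old. Renal artery stenosis (RAS) was made with a cuff on the right renal artery, and in Sham mice the artery was exposed without a cuff. Cells positive for F4/80 and CD64, a pair of macrophage surface proteins, were sorted into kidney-resident macrophages (KRM), CD11chiMϕ and CD11cloMϕ. The 21 libraries comprised 3 CD11chiMϕ, 3 CD11cloMϕ and 4 KRM libraries from Sham kidneys and 4, 4 and 3 from RAS kidneys. The cells gated out during the sort included those bearing CD3e, Ter119, NK1.1 or Ly6G, the surface markers of T cells, red cell precursors, NK cells and neutrophils. The sources do not tie a library to a mouse, so p-values measure the spread between these libraries, which may be in part technical. Libraries are named by population, condition and replicate number, so that KRM RAS 1 is the KRM library of that number from RAS kidneys. Values are counts scaled to library size by trimmed means (CPM), and a gene is called changed at an adjusted p under 0.05 in edgeR's quasi-likelihood test.

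T cells recognise antigen through receptor chains that carry no signalling tail of their own and pass the signal through the CD3 complex to the kinases Lck and Zap70. NK cells lack this receptor and act through activating receptors such as NKp46 and through granules of perforin and granzymes, which cytotoxic T cells share. In the kidney both lineages live beside the macrophages, and the antibody gate was aimed at them. Some of the genes are not restricted to lymphocytes. Cd4 is carried by some mouse macrophages and dendritic cells, Il2ra by activated myeloid cells and Prkcq by several cell types. In bulk libraries such as these, a gene carried by more cells and a gene carried at more RNA per cell cannot be told apart.

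The libraries held 6891142 to 18592381 counts over 14607 to 17703 counted genes, and the 44 genes together took 0.00515% to 0.165% of the counts. A list of 10 macrophage genes summed to 2377 to 12753 CPM in the 21 libraries. Of these, 4 encode proteins the cells were sorted on (Emr1, Fcgr1, Itgam and Itgax) and are no check of the label, and the other 6, Csf1r and C1qa among them, summed to 1297 to 10467 CPM. A list of 10 neutrophil genes summed to 12.1 to 334 CPM in CD11chiMϕ, 65.1 to 125 CPM in KRM and 906 to 3613 CPM in CD11cloMϕ, while Ly6g, the gate's own target, was at or below 0.452 CPM in every library. Several libraries stood apart. In KRM RAS 1, the counts and the deposited log2 values of the same library correlated at r = 0.0914 over 11368 genes, against at least 0.924 in the other 20 libraries. Which of its 2 columns, if either, holds another library cannot be told from these files, and every value of KRM RAS 1 carries this limit. Over 14599 genes outside the set, KRM RAS 1 correlated with the 4 KRM Sham libraries at r = 0.956 to 0.966 and with KRM RAS 2 and 3 at 0.835 and 0.862. The latter pair correlated with each other at 0.987 and with KRM Sham at 0.801 to 0.86. CD11chiMϕ Sham 3 correlated with CD11chiMϕ Sham 1 and 2 at 0.793 and 0.785. Counts of calls that rest on these libraries are given with and without them.

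The set has a genomic core. Cd3g, Cd3d and Cd3e, which encode 3 of the CD3 chains, lie within 40056 bases of chromosome 9, and the start sites of Cd3g and Cd3d, which are read in opposite directions, are 1355 bases apart. The 250 bases before the start sites of these 3 genes are shown because they encode the complex at which the T cell antibody of the gate was aimed, and those of Klrb1c (NK1.1, the NK antibody's target) and Ncr1 (NKp46) because they mark NK cells. Sequences are from RefSeq on GRCm38.p6, 5′ to 3′ on the gene's own strand, and capitals mark matches to 4 short motifs. The windows are chr9:44980432-44980681 on the minus strand, chr9:44981536-44981785 on the plus strand and chr9:45009612-45009861 on the minus strand for the CD3 genes. Those of the NK genes are chr6:128788642-128788891 on the minus strand and chr7:4337465-4337714 on the plus strand.
Cd3g: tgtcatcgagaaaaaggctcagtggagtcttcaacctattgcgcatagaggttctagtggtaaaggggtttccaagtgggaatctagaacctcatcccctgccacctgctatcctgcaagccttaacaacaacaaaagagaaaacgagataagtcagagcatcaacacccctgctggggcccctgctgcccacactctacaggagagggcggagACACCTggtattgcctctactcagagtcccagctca
Cd3d: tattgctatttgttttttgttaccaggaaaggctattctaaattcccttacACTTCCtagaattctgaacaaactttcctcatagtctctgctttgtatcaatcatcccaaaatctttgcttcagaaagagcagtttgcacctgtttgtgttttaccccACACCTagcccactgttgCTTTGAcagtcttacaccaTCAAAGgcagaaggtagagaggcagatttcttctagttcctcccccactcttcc
Cd3e: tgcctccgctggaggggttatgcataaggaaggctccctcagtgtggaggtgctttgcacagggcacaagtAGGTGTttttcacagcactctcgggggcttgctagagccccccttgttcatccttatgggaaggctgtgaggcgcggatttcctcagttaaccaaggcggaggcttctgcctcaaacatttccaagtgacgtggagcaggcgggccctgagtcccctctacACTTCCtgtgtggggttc
Klrb1c: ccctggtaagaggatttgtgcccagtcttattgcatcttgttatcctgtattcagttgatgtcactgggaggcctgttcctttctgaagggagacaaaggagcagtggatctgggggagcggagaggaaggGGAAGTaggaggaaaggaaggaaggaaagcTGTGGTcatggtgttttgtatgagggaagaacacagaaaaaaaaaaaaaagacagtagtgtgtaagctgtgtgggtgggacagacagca
Ncr1: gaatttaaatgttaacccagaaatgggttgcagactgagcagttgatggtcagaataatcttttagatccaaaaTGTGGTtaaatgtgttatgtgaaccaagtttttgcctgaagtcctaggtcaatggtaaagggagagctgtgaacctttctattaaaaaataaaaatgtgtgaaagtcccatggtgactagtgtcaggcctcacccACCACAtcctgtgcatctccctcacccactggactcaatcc
The motifs, searched on both strands with no overlap between matches in these windows, were GGAAGT for ETS factors, TGTGGT for RUNX factors, CTTTGA for TCF and LEF factors and AGGTGT for T-box factors. Cd3e and Cd3d each held an ETS and a T-box match, Cd3d also held 2 TCF and LEF matches, and Cd3g held a T-box match. Klrb1c held an ETS and a RUNX match, and Ncr1 held 2 RUNX matches. Promoters were found for 37 of the 44 genes, 44 windows in all. The ETS letters were in 38.6% of these windows and in 19.7% of all 32851 promoters of that length. The RUNX letters were in 29.5% against 14.0%, the T-box letters in 22.7% against 11.8%, and the TCF and LEF letters in 11.4% against 13.8%. A match is a run of letters and was not tested for binding.

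Summed over the 44 genes, the CD11chiMϕ libraries held 129, 123 and 187 CPM in Sham and 1037, 610, 489 and 504 CPM in RAS. The CD11cloMϕ libraries held 51.7, 78.2 and 59.9 CPM in Sham and 224, 103, 168 and 177 CPM in RAS. The KRM libraries held 170, 177, 154 and 155 CPM in Sham and 1449, 269 and 258 CPM in RAS. In each population every RAS library was above every Sham library, and over all 44 genes CD11cloMϕ was the lowest population in both conditions. Cd4, Il2ra and Cxcr3, 3 genes singled out after their values were seen, made up 86.8% to 88.3% of the sum in KRM Sham, 42.3%, 64.4% and 11.7% in CD11chiMϕ Sham and 11.9% to 26.2% in KRM RAS. The other 41 genes summed to 18.2 to 22.5 CPM in KRM Sham and to 1277, 214 and 191 CPM in KRM RAS. A level of at least 1 CPM was reached by 7 to 11 of the 44 genes in KRM Sham and by 43 or 44 in KRM RAS. The range was 11 to 33 in CD11chiMϕ Sham, 40 to 44 in CD11chiMϕ RAS, 7 to 12 in CD11cloMϕ Sham and 23 to 35 in CD11cloMϕ RAS.

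**Figure D1:**
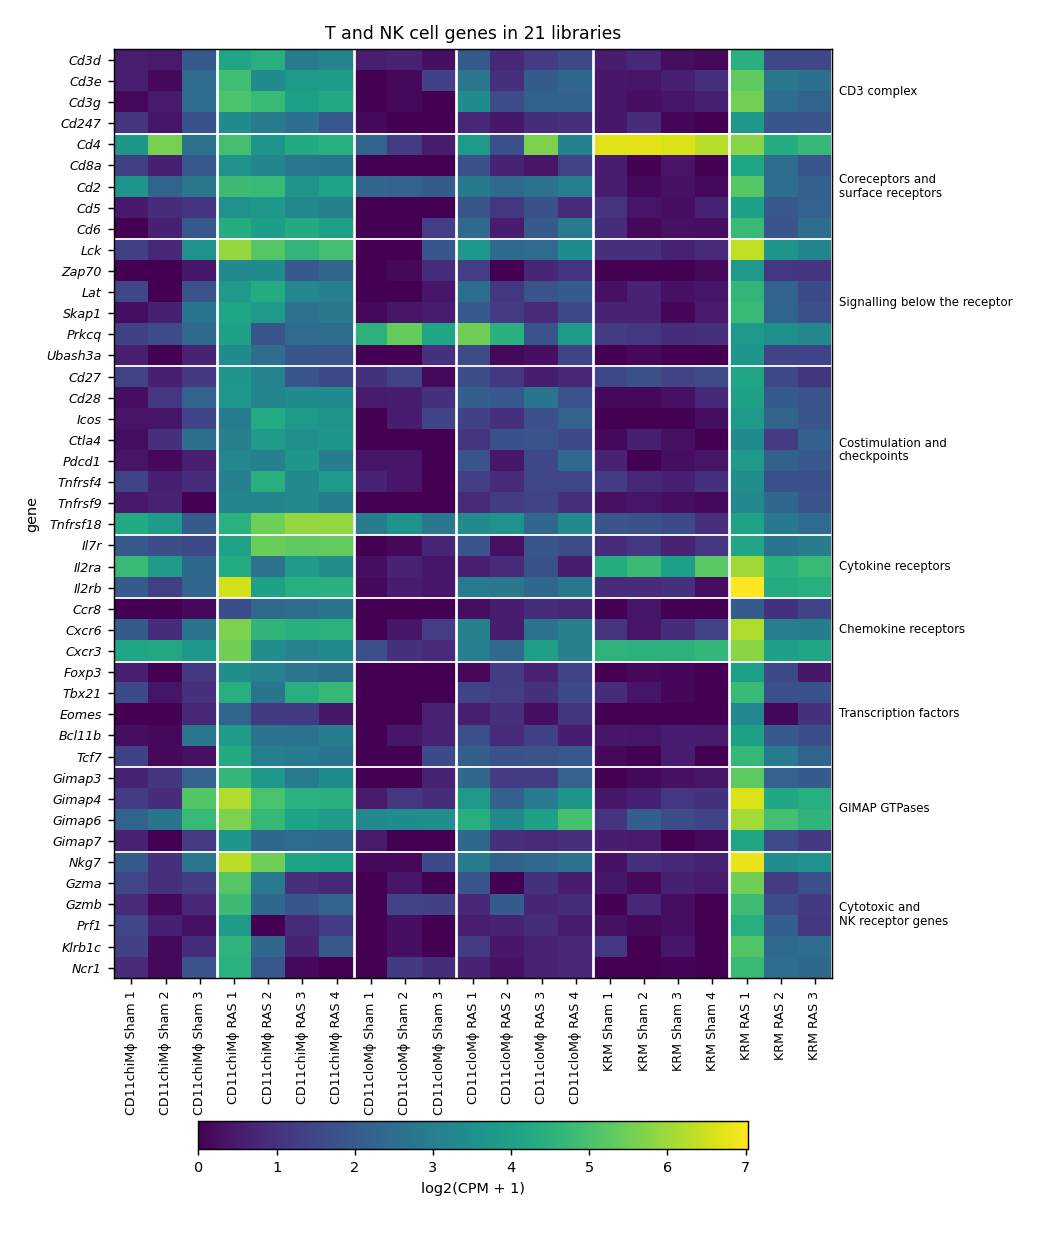
Level of each of the 44 genes (rows, by role) in each of the 21 libraries (columns, by population and condition), as log2(CPM + 1). In KRM Sham the rows of Cd4, Il2ra and Cxcr3 are the highest, and KRM RAS 1 holds the highest value of all 21 libraries for 35 genes.

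**Figure D2:**
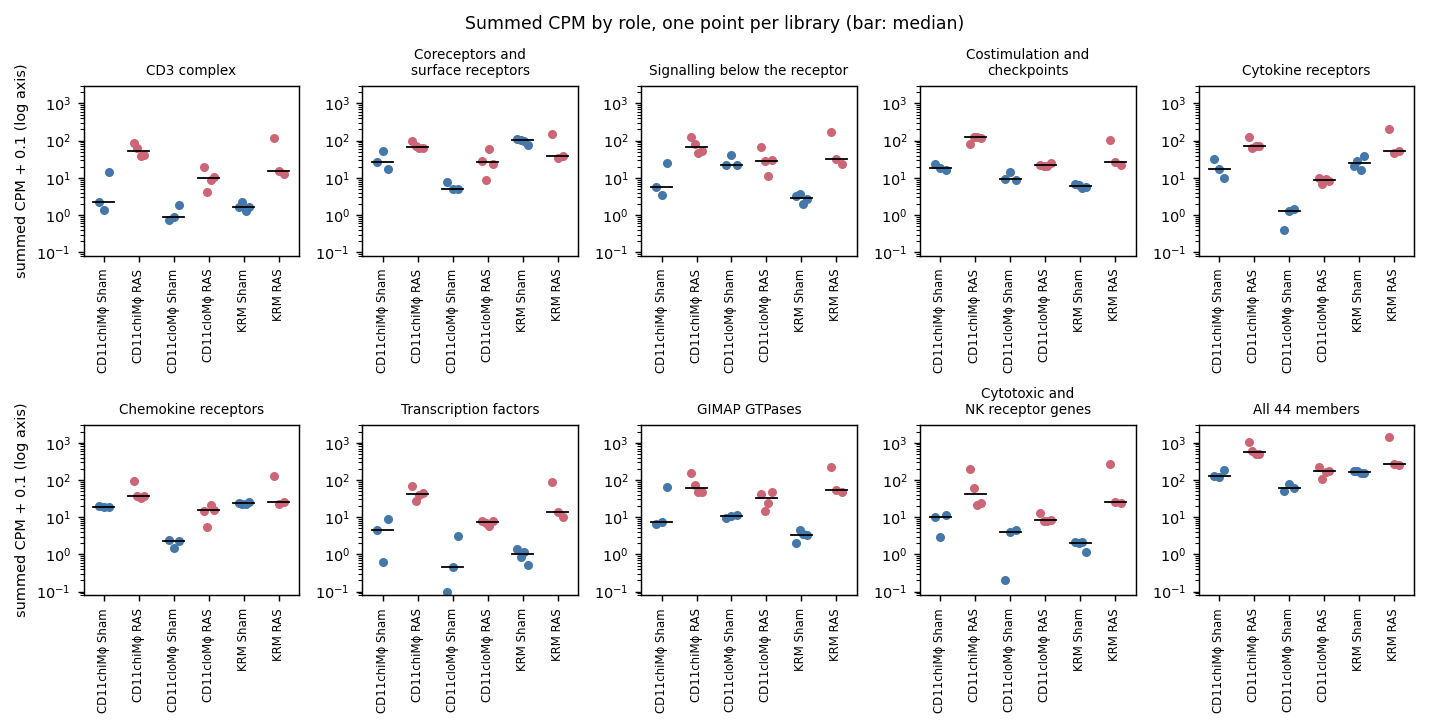
Summed CPM of each role and of all 44 genes in every library, on a log axis after adding 0.1 CPM, with points for libraries and bars for the group median. The RAS libraries of each population lie above its Sham libraries in the sum of all 44 genes.

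Cd3e encodes the CD3 chain that the lineage antibody binds. It was at 0.5, 0.106 and 4.52 CPM in CD11chiMϕ Sham and at 28.5, 9.52, 13.2 and 13.5 CPM in CD11chiMϕ RAS. In CD11cloMϕ it was at 0, 0.116 and 1.55 CPM in Sham and at 5.97, 0.954, 3.16 and 4.01 CPM in RAS. In KRM it was at 0.361, 0.317, 0.548 and 0.941 CPM in Sham and at 38.7, 6.00 and 4.95 CPM in RAS. The RAS and Sham libraries did not overlap in CD11chiMϕ or KRM, and overlapped in CD11cloMϕ. Klrb1c encodes NK1.1, the NK target of the gate. It was at 1.60, 0.106 and 0.879 CPM in CD11chiMϕ Sham, at 22.9, 3.96, 0.591 and 3.03 CPM in CD11chiMϕ RAS and at or below 1.34 CPM in all 7 CD11cloMϕ libraries. In KRM it was at 1.20, 0, 0.349 and 0 CPM in Sham and at 33.7, 4.26 and 4.67 CPM in RAS. Both gate genes were thus counted in every RAS library, and their highest values were in KRM RAS 1 and CD11chiMϕ RAS 1.

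**Figure D3:**
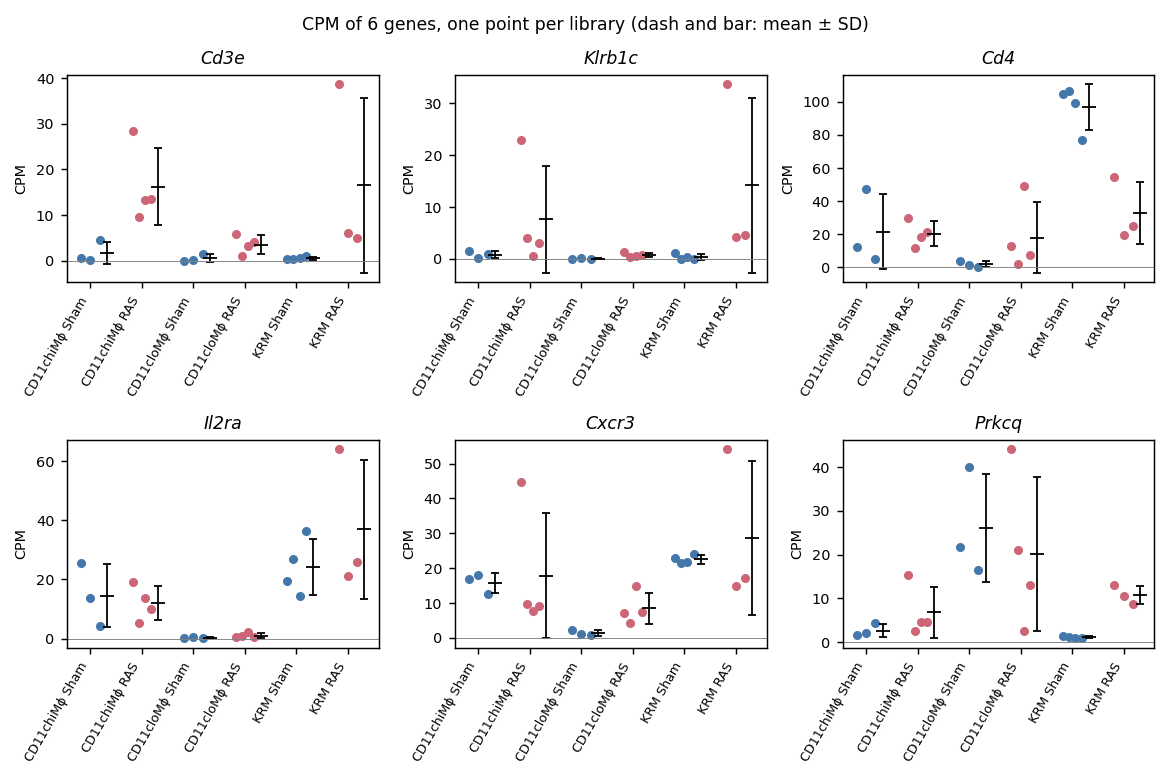
CPM of Cd3e, Klrb1c, Cd4, Il2ra, Cxcr3 and Prkcq in every library (points) with the group mean and SD. Cd3e and Klrb1c were highest in KRM RAS 1 (38.7 and 33.7 CPM), Cd4 in KRM Sham (76.7 to 107 CPM) and Prkcq in CD11cloMϕ.

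The genes called between RAS and Sham were most numerous in KRM. Among all 44 genes, 40 were higher in every RAS library than in any Sham library and 1, Cd4, was lower, against 9.38% and 11.5% of the genes with at least 1 count. With KRM RAS 1 set aside, KRM RAS 2 and 3 lay above every Sham library for 40 genes and below for 2. The share of all genes for these libraries alone was not computed. Without KRM RAS 1, 28.1% of all genes were called higher and 22.1% lower. In the test, 37 of the 42 genes with enough counts were called higher and 1 lower, against 7.4% and 2.37% of the 12852 genes tested. Of these 42, 29 reached the count minimum only in RAS libraries, so the filter itself favoured a difference. Fitted with no filter, 38 of the 44 were called, against 7.71% of all genes. DESeq2 called 27 of the 42, against 24.6% of all genes, and gave no adjusted p for 12, among them the other 11 that edgeR called. With its own filter on low counts off, DESeq2 withholds this value where a library holds an outlier count, so the 12 were not called.

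KRM RAS 1 was the highest for most of these genes. Without it the log2 fold change was smaller for all 37 genes called higher, by over 1.5 times in fold for 34 of them, and their median went from 4.95 to 3.60.

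By role, all 4 CD3 genes rose in KRM. Cd3g was 5.65 ± 1.00 log2 units higher in RAS (SE, adjusted p = 0.0258), Cd3e 4.95 ± 0.84 (adjusted p = 0.0245), Cd3d 4.51 ± 1.08 (adjusted p = 0.0434) and the zeta chain Cd247 4.27 ± 1.03 (adjusted p = 0.0443). These values were 3.60, 3.37, 2.37 and 3.13 without KRM RAS 1. The summed CD3 genes went from 1.20 to 2.12 CPM in Sham to 117, 15.3 and 13 CPM. Of the coreceptors and surface receptors, Cd8a, Cd2, Cd5 and Cd6 rose. Cd2, an adhesion receptor of T and NK cells, was at 0.481, 0.106, 0.249 and 0.105 CPM in Sham and 35.9, 4.87 and 3.48 CPM in RAS. Cd4 fell by 1.49 ± 0.34 log2 units (adjusted p = 0.0396). Its values were 105, 107, 99.4 and 76.7 CPM in Sham and 54.5, 19.6 and 24.7 CPM in RAS, so the groups did not overlap.

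All 6 signalling genes rose. Prkcq, which encodes the protein kinase C isoform of the T cell synapse, had the smallest adjusted p of the set. It was at 1.32, 1.16, 0.897 and 0.941 CPM in Sham and 13, 10.5 and 8.80 CPM in RAS, a log2 fold change of 3.40 ± 0.28 (adjusted p = 0.00438). Its RAS values were alike in the 3 libraries, unlike those of most of the set. Lck, the kinase that phosphorylates the CD3 chains, was 5.41 ± 0.87 log2 units higher (3.64 without KRM RAS 1) and went from 0.598 to 0.962 CPM in Sham to 81.8, 11.6 and 8.06 CPM. Zap70, the kinase that docks on phosphorylated CD3, had 1 count in the 4 Sham libraries together and 131, 14 and 12 counts in RAS, a ratio of 228 with a 95% counting interval of 40.4 to 9071. Without KRM RAS 1 the ratio was 55.0 (9.03 to 2253), and without KRM Sham 3 it was 132. Ubash3a, a negative regulator of this signal, had 1 count in Sham and 122, 19 and 18 in RAS, a ratio of 231 (40.9 to 9186). It was 78.2 (13.2 to 3172) without KRM RAS 1 and 133 without KRM Sham 3.

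Among the costimulatory and checkpoint receptors 7 of 8 rose. Tnfrsf9 (4-1BB) was at 0.105 to 0.317 CPM in Sham and 8.74, 4.00 and 2.47 CPM in RAS, 4.57 ± 0.58 log2 units higher (adjusted p = 0.0149), and 3.93 without KRM RAS 1. Tnfrsf18 (GITR) and Tnfrsf4 (OX40) had the smallest called increases, 2.23 ± 0.52 and 2.49 ± 0.63, and 1.50 and 1.44 without KRM RAS 1. Cd27 was at 1.70 to 2.33 CPM in Sham and 16.5, 1.91 and 1.1 CPM in RAS and was not called, and KRM RAS 2 and 3 were within or below the Sham range. Ctla4, which restrains T cells, was 4.36 ± 0.92 log2 units higher, and 3.41 without KRM RAS 1.

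Of the 3 cytokine receptors, the IL-2 and IL-15 receptor beta chain Il2rb was at 0.209 to 0.997 CPM in Sham and 130, 19.2 and 20.3 CPM in RAS (6.27 ± 0.86, adjusted p = 0.0162, and 4.77 without KRM RAS 1). Il7r, the receptor through which T cells and innate lymphoid cells are maintained, was 3.43 ± 0.47 log2 units higher (adjusted p = 0.0162), and 2.81 without KRM RAS 1. Il2ra, the alpha chain, was at 19.5, 27.0, 14.6 and 36.3 CPM in Sham and 64.0, 21 and 25.9 CPM in RAS, and its log2 fold change of 0.69 ± 0.43 was not called (adjusted p = 0.284) and was 0.03 without KRM RAS 1. The chemokine receptors Ccr8 and Cxcr6 rose, while Cxcr3 was at 21.4 to 24.2 CPM in Sham and 54.1, 14.8 and 17.0 CPM in RAS and was not called. Without KRM RAS 1 Cxcr3 was called lower, as KRM RAS 2 and 3 were below all 4 Sham libraries.

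All 3 transcription factors tested rose, Tcf7 (5.98 ± 1.06), Tbx21 (5.15 ± 1.25) and Bcl11b (4.11 ± 0.74). They were 4.79, 3.07 and 2.72 log2 units higher without KRM RAS 1. Tbx21 was at 0 to 0.842 CPM in Sham and 25.7, 2.26 and 2.38 CPM in RAS. Foxp3, the factor of regulatory T cells, had too few counts for the test, with 3 counts in Sham and 175 in RAS, and was at 14.6, 1.91 and 0.367 CPM in RAS. Eomes had 0 counts in KRM Sham and was at least 51.8-fold higher in RAS against a floor of 3 counts over the group, at 8.74, 0.0869 and 1.01 CPM. This bound was 8.65-fold without KRM RAS 1 and 29.9-fold without KRM Sham 3. All 4 GIMAP genes, small GTPases of lymphocytes, rose, Gimap6 by 4.33 ± 0.47 log2 units (adjusted p = 0.0117) and Gimap4 by 5.85 ± 0.76 (adjusted p = 0.0149, and 4.59 without KRM RAS 1). Gimap4 was at 0.361 to 1.15 CPM in Sham and 99.5, 17.6 and 20.2 CPM in RAS. Reads of closely related GIMAP and granzyme genes may have been split between copies, so values of single members are less certain than the sums.

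Of the cytotoxic and NK receptor genes 5 of 6 rose, and Gzmb had an adjusted p of 0.0518. Ncr1 had 1 count in the 4 Sham libraries together and 362 in RAS, where it was at 25.7, 4.78 and 4.12 CPM, a ratio of 526 with a 95% counting interval of 93.9 to 20842 (adjusted p of the edgeR test, 0.0143). The ratio was 211 without KRM RAS 1, and without KRM Sham 3, which held the single Sham count, Ncr1 was at least 105-fold higher. Nkg7, a granule protein of cytotoxic cells, was at 0.241 to 0.952 CPM in Sham and 113, 9.82 and 11 CPM in RAS (6.11 ± 1.03, and 4.03 without KRM RAS 1). Klrb1c was 5.27 ± 1.25 log2 units higher (adjusted p = 0.0430) and the pore-forming protein gene Prf1 5.78 ± 1.13, and without KRM RAS 1 they were 3.62 and 3.94.

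Without KRM RAS 1, 38 genes were called higher and 2 lower, and all 38 genes of the full comparison were among them, where 28.1% of all genes were called higher and 22.1% lower. The count of genes called higher was 29 without KRM Sham 3, where 9.06% of all genes were called higher. It was 1 without KRM Sham 1 (0.172% of all genes), 2 without KRM Sham 2 (0.22%) or KRM Sham 4 (0.251%), 6 without KRM RAS 2 (0.177%) and 7 without KRM RAS 3 (0.184%). The calls over all genes fell with these 5 counts, from 1256 to 26 without KRM Sham 1. Erythroid genes moved in the same direction. Their summed level was 88.9 to 183 CPM in KRM Sham and 740, 386 and 337 CPM in KRM RAS, and all 4 tested were called higher. One of them, Slc4a1, encodes an anion exchanger of red cells that intercalated cells of the collecting duct also carry, and was at 0 in Sham and 1.57, 106 and 97.3 CPM in RAS. The erythroid sum without it was 738, 280 and 240 CPM in KRM RAS. The 10 macrophage genes summed to 10644 to 12753 CPM in Sham and 9171, 5109 and 6332 CPM in RAS, with 4 called lower and 9 without KRM RAS 1. The 10 neutrophil genes summed to 90.3 to 117 CPM in Sham and 125, 65.1 and 81.5 CPM in RAS, most of it Csf3r, and none was called, against 2 called lower without KRM RAS 1. Whether the erythroid signal plays a part in that of the T and NK cell genes was not tested.

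**Figure D4:**
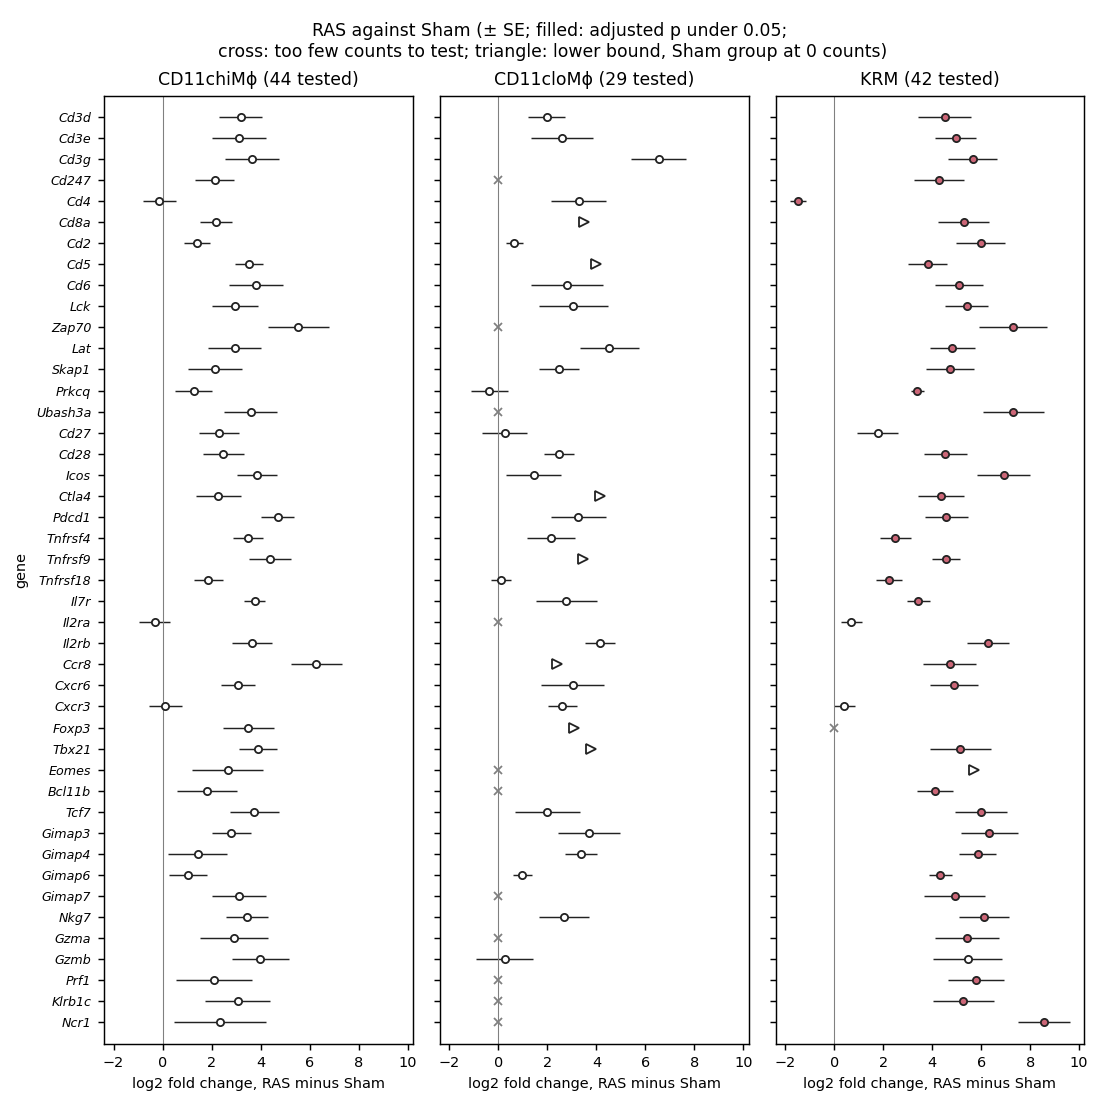
Log2 fold change, RAS minus Sham, with its SE for each gene in the 3 populations (filled points, adjusted p under 0.05, crosses, too few counts to test, triangles, a lower bound where the Sham group was at 0 counts). In KRM 37 points are filled to the right of 0 and 1, Cd4, to the left, and none is filled in CD11chiMϕ or CD11cloMϕ.

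In CD11chiMϕ, 30 of the 44 genes were higher in every RAS library than in any Sham library and none lower, against 3.31% and 2.24% of genes with at least 1 count. None of the 44 was called by edgeR, as none of all 12739 genes was (0%), while 31 had an unadjusted p under 0.05 against 9.79% of all genes. DESeq2 called 20 of them higher, against 1.36% of all genes. Of the 44, 7 reached the count minimum only in RAS libraries. The median log2 fold change of the set was 3.01, beside -0.09 for all genes. The dendritic cell list summed to 514 to 1998 CPM in Sham and 1242 to 5753 CPM in RAS. The macrophage list summed to 2377 to 7927 CPM in Sham and 2562 to 6278 CPM in RAS. The part of these cells in the result was not tested. Il7r was at 2.80, 2.23 and 2.01 CPM in Sham and 15.7, 42.8, 38.2 and 39.5 CPM in RAS, 3.76 ± 0.44 log2 units higher (adjusted p = 0.31). Without CD11chiMϕ RAS 1 it was the single gene of the set that was called, at 3.99 ± 0.30, where 0.226% of all genes were called higher. Pdcd1, the checkpoint receptor PD-1, was at 0.106 to 0.502 CPM in Sham and 6.68 to 12.1 CPM in RAS (4.69 ± 0.66, adjusted p = 0.442). Cd3e was 3.13 ± 1.1 log2 units higher (adjusted p = 0.508) and Klrb1c 3.06 ± 1.34 (adjusted p = 0.509). Cd3e was 5.63 without CD11chiMϕ Sham 3, and Klrb1c was 1.43 without CD11chiMϕ RAS 1 and 3.86 without CD11chiMϕ Sham 1, none of them called. Cd4, Il2ra and Cxcr3 were within 0.33 log2 units of 0, at -0.13, -0.33 and 0.11. CD11chiMϕ Sham 3 was the highest of its group for 29 genes, with Gimap4 at 34.8 CPM against 1.40 and 0.850 CPM in the other two and with an erythroid sum of 559 CPM against 65.1 and 90.2 CPM.

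In CD11cloMϕ, 26 of the 44 genes were higher in every RAS library than in any Sham library and none lower, against 3.44% and 2.86% of genes with at least 1 count. Of the 29 genes tested edgeR called none, as of all 12301 genes (0%), 17 had an unadjusted p under 0.05 against 8.96% of all genes, and DESeq2 called 9 higher against 0.829% of all genes. Of these 29, 13 reached the count minimum only in RAS libraries, so the filter itself favoured a difference. Il2rb was at 0.103, 0.464 and 0.332 CPM in Sham and 6.49, 5.84, 4.18 and 5.72 CPM in RAS (4.15 ± 0.62, adjusted p = 0.553). Against a floor of 3 counts over the Sham group, Ctla4 was at least 17.8-fold higher in RAS, Cd5 at least 15.9-fold, Tbx21 at least 13.8-fold, Cd8a at least 11.4-fold and Tnfrsf9 at least 10.9-fold. These genes had no count in the 3 Sham libraries, and without CD11cloMϕ Sham 1 the bounds were 11.5, 10.3, 8.90, 7.37 and 7.08-fold in the same order. Cd3g had 1 count in Sham and 172 in RAS, a ratio of 134 (95% counting interval 23.7 to 5313). It was 82.7 without CD11cloMϕ RAS 1 and 86.4 without CD11cloMϕ Sham 1, and without CD11cloMϕ Sham 2, which held the single Sham count, Cd3g was at least 29.4-fold higher. Prkcq, unlike the other signalling genes, was high in CD11cloMϕ Sham, at 21.8, 40.0 and 16.5 CPM, and at 44.1, 21, 2.49 and 13.1 CPM in RAS.

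The difference between the responses was tested directly. Ncr1 rose more in KRM than in CD11cloMϕ by 8.94 ± 1.57 log2 units (adjusted p = 0.0446), the single gene of the set so called, where 0.223% of 13877 genes were called higher. In CD11cloMϕ it was at 0, 1.27 and 0.884 CPM in Sham and 0.618, 0.238, 0.565 and 0.730 CPM in RAS. Since KRM Sham held 1 Ncr1 count, the size of this difference depends on how zeros are treated. Ncr1 passed the count filter through KRM RAS, at 262, 55 and 45 counts against at most 11 in any other library of this fit. The filter itself thus favoured this difference. Fitted with no filter, 3 of the 44 genes were called, against 0.338% of all genes. The call held without CD11cloMϕ Sham 1, CD11cloMϕ RAS 1 or KRM RAS 1 and was lost without any 1 of the other 11 libraries. Without KRM RAS 1, 6 genes were called, Cd2, Ncr1, Gimap6 and Prkcq with a larger and Cxcr3 and Cd4 with a smaller response in KRM. Of all genes 8.23% were then called with a larger and 7.87% with a smaller response, so that 6 of 44 is a share near that of all genes. None of the 44 was called by edgeR for KRM against CD11chiMϕ (0% of all genes called). An unadjusted p under 0.05 was reached by 10 against 21.2% of all genes, and DESeq2 called 3 against 8.64%. For CD11chiMϕ against CD11cloMϕ none was called either by edgeR (0% of all genes), with 9 at an unadjusted p under 0.05 against 6.65% and none by DESeq2 against 0.111%. The larger number of calls in KRM than in CD11chiMϕ is thus not shown to be a larger response.

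In Sham kidneys the populations differed in few of the genes, and most were too low to test. KRM exceeded CD11cloMϕ in Il2ra by 5.97 ± 0.49 log2 units (adjusted p = 4.45e-05), in Cd4 by 5.65 ± 0.54 and in Cxcr3 by 4.00 ± 0.38. Il2ra was at 14.6 to 36.3 CPM in KRM and at 0.207, 0.580 and 0.332 CPM in CD11cloMϕ. KRM was lower in Prkcq (-4.62 ± 0.37), Cd2 (-3.91 ± 0.57), Gimap6 (-2.24 ± 0.39) and Tnfrsf18 (-2.01 ± 0.43). These 7 were of 8 tested, where 19.5% of all genes tested were called higher and 22.4% lower in KRM. Il2ra reached the count minimum only in KRM and Cd2 only in CD11cloMϕ, so for them the filter itself favoured a difference. Fitted with no filter, 9 of the 44 were called, against 24.7% of all genes. All 5 neutrophil genes tested were called lower in KRM as well, from Retnlg (-8.59) to Csf3r (-1.46). Of 9 dendritic cell genes tested 4 were called higher in KRM, Clec9a (5.18), Siglech (4.16), Xcr1 (1.95) and Dpp4 (1.40), and 1, Cd209a (-2.06), lower. B and plasma cell genes were called higher in KRM as well, Igj (4.66) and Cd79b (2.98) among them, and none lower. Their list summed to 415 to 523 CPM in KRM and 15.7 to 47.7 CPM in CD11cloMϕ. The part of these cells in the result was not tested. Per kilobase of transcript, Cd4 was the highest of the set in KRM Sham, at a mean of 24.1 CPM per kb, followed by Cxcr3 at 13 and Il2ra at 4.26. In CD11chiMϕ Sham the highest were Cxcr3 at 9.15 and Tnfrsf18 at 7.84, and in CD11cloMϕ Sham Tnfrsf18 at 5.16 and Prkcq at 3.68.

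KRM differed from CD11chiMϕ in Sham by 1 call among 12 genes tested, where 4.13% of all genes were called lower in KRM. Cd2 was lower in KRM (-4.93 ± 0.65, adjusted p = 0.00955), at 11.9, 3.82 and 5.90 CPM in CD11chiMϕ against at most 0.481 CPM in KRM. It reached the count minimum only in CD11chiMϕ libraries, so the filter itself favoured a difference. Fitted with no filter, 1 of the 44 was called, against 1.97% of all genes. Of 10 dendritic cell genes 6 were called lower in KRM, Cd209a (-5.89) and Zbtb46 (-3.87) among them, as were the neutrophil genes S100a8 (-3.71) and S100a9 (-4.10), and their part in the result was not tested. Without CD11chiMϕ Sham 2 or CD11chiMϕ Sham 3, 3 genes were called, where 6.95% and 13.6% of all genes were, with Cd4 higher in KRM in both cases. CD11chiMϕ exceeded CD11cloMϕ in Cxcr3 (3.60 ± 0.49, adjusted p = 0.0328) and Il2ra (5.28 ± 0.81, adjusted p = 0.0424), 2 of 14 genes tested, where 0.917% of all genes were called higher and the median of all genes was shifted by 0.13 log2 units. Of 10 dendritic cell genes 2 were also called higher in CD11chiMϕ, Siglech (5.13) and Xcr1 (3.98), and the list summed to 514 to 1998 CPM against 92.2 to 242 CPM. Their part in the result was not tested. When same-numbered libraries were treated as pairs in a replicate block, 4 genes were called against 4.92% of all genes, Cd4 (3.43 ± 0.71) also higher and Prkcq (-3.24 ± 0.56) lower in CD11chiMϕ. Without the filter on low counts none was called by edgeR, against 0.483% of all genes. None was called either when any 1 of the 6 libraries but CD11chiMϕ Sham 3 was left out, and none of all genes was called in those 5 fits. Without CD11chiMϕ Sham 3, 3 were called, where 5.7% of all genes were.

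In RAS kidneys CD11chiMϕ held more of the set than CD11cloMϕ. Of all 44 genes, 32 were higher in every CD11chiMϕ library and none lower, against 6.46% and 4.88% of genes with at least 1 count. The test called 29 of 40 genes higher, where 5.15% of all genes were, and 27 of the 44 with no filter, where 3.19% were. All 4 CD3 genes were called, 4 of 5 coreceptors and surface receptors, 3 of 6 signalling genes, 6 of 8 costimulatory and checkpoint receptors, all 3 cytokine receptors, 2 of 3 chemokine receptors, all 4 transcription factors tested and 2 of 4 GIMAP genes. Of the cytotoxic and NK receptor genes Nkg7 alone was called, of 3 tested. Tbx21, the T-bet factor of type 1 T cells and NK cells, was at 20.8, 5.71, 20.1 and 25.4 CPM in CD11chiMϕ and 1.02 to 1.95 CPM in CD11cloMϕ (3.55 ± 0.48, adjusted p = 0.00491). Il7r was 4.16 ± 0.59 log2 units higher (adjusted p = 0.00556), Tnfrsf9 2.71 ± 0.41 (adjusted p = 0.00626), Tnfrsf4 3.07 ± 0.47 (adjusted p = 0.00648), Ctla4 2.47 ± 0.39 (adjusted p = 0.0075) and Tnfrsf18 2.43 ± 0.39 (adjusted p = 0.00784). Tnfrsf18 was at 21.7, 43.8, 58.9 and 58.0 CPM in CD11chiMϕ and 4.18 to 10.7 CPM in CD11cloMϕ. Cd3e was 2.19 ± 0.54 higher (adjusted p = 0.0389), and Klrb1c 3.32 ± 1.01 (adjusted p = 0.0731).

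The count of 29 rested in part on single libraries. It was 26 without CD11chiMϕ RAS 1, 17, 14 and 14 without CD11chiMϕ RAS 2, 3 and 4, 9 and 10 without CD11cloMϕ RAS 2 and 4, and 11 when all 6 groups shared 1 fit (7.27% of all genes). Of all genes 10% were called higher without CD11chiMϕ RAS 1, 3.15%, 1.57% and 1.65% without CD11chiMϕ RAS 2, 3 and 4, and 1.79% and 1.83% without CD11cloMϕ RAS 2 and 4. All 26 and all 11 were among the 29. Dendritic cell genes moved the same way. A list of 10 summed to 1242, 2193, 5352 and 5753 CPM in CD11chiMϕ RAS and 159 to 486 CPM in CD11cloMϕ RAS, with 8 of 10 called higher. The dendritic cell sum was lowest in CD11chiMϕ RAS 1, where the sum of the T and NK cell genes was highest. Neutrophil genes moved the opposite way. The list of 10 summed to 12.1 to 334 CPM in CD11chiMϕ RAS and 1941 to 3613 CPM in CD11cloMϕ RAS, and 4 of 6 tested were called lower in CD11chiMϕ, where 3.12% of all genes were, Cxcr2 (-4.89), Csf3r (-4.01), S100a8 (-4.49) and S100a9 (-4.52). The part of dendritic cell and neutrophil RNA in the result was not tested.

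KRM exceeded CD11cloMϕ in RAS in 6 of 43 genes, where 3.28% of all genes were called higher. They were Il2ra (5.16 ± 0.66), Ncr1 (4.41 ± 0.79), Klrb1c (4.24 ± 0.88), Prf1 (3.70 ± 0.93), Il2rb (3.36 ± 0.69) and Cd247 (2.99 ± 0.72), with adjusted p from 0.0139 to 0.0495. Of the 43, 4 reached the count minimum only in KRM, so the filter itself favoured a difference. They were Cd247, Prf1 and Ncr1, which were called, and Ccr8, which was not. Fitted with no filter, 4 of the 44 were called higher (Il2ra, Ncr1, Il2rb and Klrb1c), where 2.02% of all genes were. Ncr1, Klrb1c and Prf1 are NK cell or cytotoxic genes, and Il2rb is carried by NK cells and activated T cells. No gene of the set was called lower. All 5 neutrophil genes tested were called lower in KRM, by 2.95 to 9.58 log2 units, where 5.89% of all genes were called lower, and their part in the result was not tested. Leaving out 1 library at a time gave 0 to 6 calls. Il2ra, Il2rb, Ncr1 and Klrb1c were called without KRM RAS 1, where 12.6% of all genes were called higher, so that 4 of the set is a share no larger than that of all genes. A single gene was called without CD11cloMϕ RAS 1 (0.98% of all genes). None was called without KRM RAS 2 or KRM RAS 3 (0% of all genes called higher), CD11cloMϕ RAS 2 (0.0231%) or CD11cloMϕ RAS 4 (0.054%). Between KRM and CD11chiMϕ in RAS, Tnfrsf18 was lower in KRM (-2.32 ± 0.53, adjusted p = 0.0402), 1 of 44 where 5.07% of all genes were called lower. Of 10 dendritic cell genes 5 were called lower in KRM, with a sum of 206 to 260 CPM against 1242 to 5753 CPM in CD11chiMϕ, and 6 were without KRM RAS 1. Their part in the result was not tested. Cd3e was 0.07 ± 0.73 log2 units higher in KRM, a difference smaller than its SE. Without KRM RAS 1, 16 genes were called lower in KRM, where 6.79% of all genes were. Without both KRM RAS 1 and CD11chiMϕ RAS 1, 15 were lower and 2 higher, where 12.4% of all genes were called lower and 17.8% higher. Without CD11chiMϕ RAS 1 alone 4 were called, where 17.6% of all genes were, and without any other single library none was.

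KRM RAS 1 and CD11chiMϕ RAS 1 were alike in the set. Across the 44 genes, log2(CPM + 1) in KRM RAS 1 correlated with that in CD11chiMϕ RAS 1 at r = 0.956. The next highest were KRM RAS 2 and 3 at 0.737 and 0.713, and the other 3 CD11chiMϕ RAS libraries correlated with CD11chiMϕ RAS 1 at 0.354 to 0.443. These are correlations across genes, which are not independent replicates. The ratio of KRM RAS 1 to CD11chiMϕ RAS 1 ran from 0.735 for Tnfrsf18 to 3.35 for Il2ra, with a median of 1.39. Over 14599 genes outside the set the same pair correlated at 0.959, close to the 0.956 to 0.966 of KRM RAS 1 with KRM Sham.

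What set these libraries apart from their groups was not the same for every role. KRM RAS 1 held a median of 6.82 times the mean of the other two over the 44 genes, 9.89 times over the cytotoxic and NK receptor genes and 3.97 times over the costimulatory and checkpoint receptors. CD11chiMϕ RAS 1 held 2.04 times the mean of the other 3 over the set, 11.1 times over the cytotoxic and NK receptor genes and 0.803 times over the costimulatory and checkpoint receptors. Il7r was at 15.7 CPM there against 38.2 to 42.8 CPM, and Gzma, a granzyme gene, at 35.4 CPM against 0.728 to 6.34 CPM. The sum of cytotoxic and NK receptor genes was 2.27 times the sum of CD3 genes in that library and 0.972, 0.536 and 0.580 times in CD11chiMϕ RAS 2, 3 and 4. In KRM RAS it was 2.26, 1.68 and 1.89 times, and in CD11cloMϕ RAS 0.646, 1.94, 0.899 and 0.814 times. In Sham, where both sums are low, it was 4.45, 2.17 and 0.809 times in CD11chiMϕ and 1.31, 0.9, 1.75 and 0.667 times in KRM. Ratios on both sides of 1 were found in CD11chiMϕ and CD11cloMϕ RAS libraries and in Sham libraries, and the ratios were not tested between groups. Per kilobase, Nkg7 was the highest of the set by group mean, at 48.8 CPM per kb in KRM RAS and 41.8 in CD11chiMϕ RAS. Its level in KRM RAS 1 was 10.9 times the mean of KRM RAS 2 and 3. In CD11chiMϕ RAS 1 it was 3.08 times the mean of CD11chiMϕ RAS 2, 3 and 4.

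**Figure D5:**
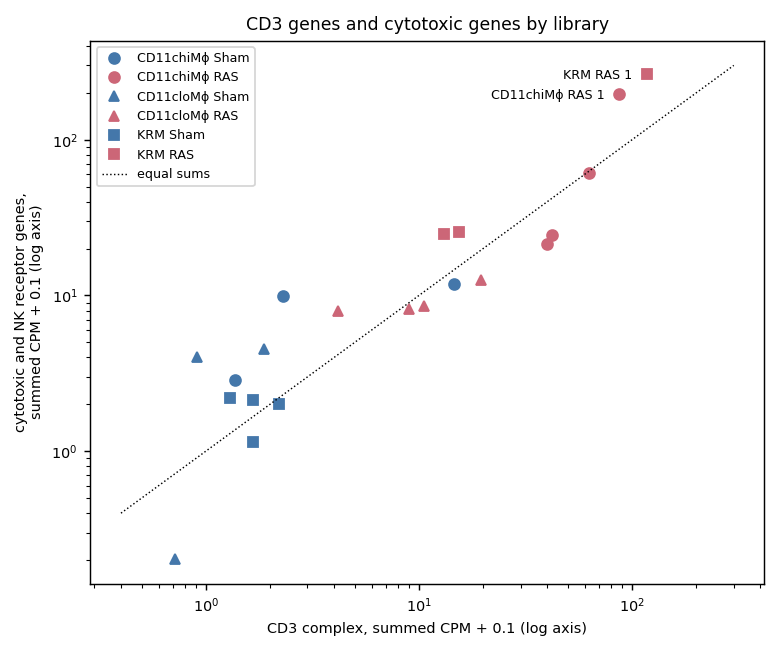
Summed CPM of the 6 cytotoxic and NK receptor genes against that of the 4 CD3 genes in each library, with a dotted line where both are equal. CD11chiMϕ RAS 1 (197 against 86.8 CPM) and KRM RAS 1 (265 against 117 CPM) lie apart from the others and above the line.

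Genes of the same lineages outside the set were read from other lists. In KRM RAS, both T cell receptor constant genes tested were called higher than in Sham, Trac by 6.00 and Trbc2 by 6.86 log2 units (4.45 and 5.01 without KRM RAS 1), where 7.4% of all genes were called higher. Of 14 other T cell genes tested 10 were called higher and none lower, with the smallest adjusted p for Gata3 (7.87), Sh2d2a (5.70), Lef1 (6.72) and Themis (6.17). Of 10 other NK and innate lymphoid genes 7 were called higher and none lower, led by Xcl1 (7.71), Kit (6.01), Ctsw (5.33) and Ifng (7.53). Both T cell receptor genes tested, 7 of the 14 and 4 of the 10 reached the count minimum only in RAS libraries. For these the filter itself favoured a difference. Fitted with no filter, 3 of 3, 11 of 20 and 7 of 14 were called higher. Without KRM RAS 1, 2 of 2, 11 of 14 and 9 of 11 were called higher and Il1rl1, one of the 11, lower, beside the 28.1% and 22.1% of all genes given above. Without that library Gata3 was at 8.29, Sh2d2a at 4.39, Lef1 at 5.44, Themis at 4.80, Xcl1 at 6.43, Kit at 6.48, Ctsw at 3.55 and Ifng at 5.34 log2 units above Sham. Gata3 and Kit are also expressed outside the T and NK lineages, and they were not highest in KRM RAS 1. Gata3 was at 9.23, 37.5 and 34.5 CPM and Kit at 4.52, 82.2 and 68.1 CPM in KRM RAS 1, 2 and 3, and Slc4a1 was likewise lowest in KRM RAS 1. In CD11chiMϕ RAS against CD11cloMϕ RAS, 2 of 3 T cell receptor genes, 2 of 13 other T cell genes and 8 of 12 other NK and innate lymphoid genes were called higher, Klrd1 by 5.08 log2 units, where 5.15% of all genes were. Klrd1 (6.36), Kit (3.47) and Ccl5 (3.13) were also called higher in CD11chiMϕ in Sham, where Klrd1 was at 103, 54.1 and 15.6 CPM in CD11chiMϕ. Of 6 B and plasma cell genes tested, 1, Spib, was called higher in RAS than in Sham libraries of KRM and none lower. With no filter Spib was not called and 1 gene was called lower, and without KRM RAS 1, 2 were called higher and 3 lower. The list of 10 summed to 415 to 523 CPM in KRM Sham and 420, 78.7 and 76.7 CPM in KRM RAS. Most of that sum was Igj, the J chain of antibodies, at 326 to 417 CPM in Sham and 342, 45.2 and 46.1 CPM in RAS. In CD11chiMϕ and CD11cloMϕ no gene of these lists was called between RAS and Sham, as for all genes.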

How the data were processed

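Libraries were made from sorted kidney macrophages with SMART-Seq v4 Ultra Low-Input and Nextera XT kits. The authors aligned reads to mouse mm10 with OSA and Ensembl R83 genes and deposited estimated counts per gene, of which 9.7% to 14.2% of nonzero values per library were not whole and were rounded to the nearest whole number. The strand setting of the counting is not given in the sources used here. The submitters' processing notes also name DESeq2. A second table, deposited as log2 normalized values for 14034 rows, was used for a check of the libraries only.

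Of 37620 rows, those with the same symbol were summed to 34236. Each comparison was fitted over all genes passing filterByExpr (count minimum 10, total minimum 15) within the groups compared, with TMM scaling and edgeR 4.0.16 (glmQLFit, glmQLFTest, two-sided, Benjamini-Hochberg) in R 4.3.3, and differences of response as interaction terms. SEs are the log2 fold change over the square root of the F statistic. Alternatives were DESeq2 1.42.0, other scaling, no filter, 1 fit over all groups, a replicate block and leaving out each library. The fits were tested on simulated counts. Same-numbered Sham libraries deviated together (r = 0.201 to 0.647, 9 pairs) and were treated as pairs in the block. Those of different number correlated at -0.559 to 0.482 (24 pairs), and a library correlated best with its own number in 13 of 18 cases, so the pairing is a hint from the data, as the labels give only the number. Replicate pairs all differed by more than sampling noise (chi-square per degree of freedom 4.95 to 338 over 27 pairs). Intervals and floors cover counting error only, at 95% and 3 counts. CPM are on TMM scaling. Python 3.11.15, pandas 2.3.3 and matplotlib 3.10.9 made summaries and figures.

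The genes of the set, their roles and the other lists were chosen with earlier results of these data known. Named were Cd3e and Klrb1c in every library, the genes called in each comparison (at most 6 per direction, by adjusted p) and, from other lists, at most 4 genes. Genes named beyond this rule were picked after their values were seen. A further marker of the lineage gate is not reported here.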

Additional observations from a re-analysis of the deposited data

Results flagged for a closer look

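Among the 4 CD11chiMϕ RAS libraries, CD11chiMϕ RAS 1 stood apart from the other 3 by Dixon's criterion for 7 genes. It was the highest for Cxcr3 (44.6 CPM), Il2rb (93.2 CPM), Klrb1c (22.9 CPM), Ncr1 (21.6 CPM), Prf1 (13.1 CPM) and Prkcq (15.4 CPM), and the lowest for Il7r (15.7 CPM). These were 7 of 60 combinations, each of 1 of 19 genes or the sum of the set with a group of 4 libraries. The criterion flags about 5% by chance, but all 7 are of 1 library, whose genes are not independent. Groups of 3 libraries, KRM RAS among them, were not examined.

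The RAS response of Ncr1 differed between KRM and CD11cloMϕ, by 8.94 log2 units in the interaction term of edgeR (adjusted p = 0.0446). Ncr1 passed the count filter through KRM RAS, where it was highest. The call was lost in most of the fits that left out a single library, as given above.

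In the deposited log2 values, which no comparison used, 40 of the 44 genes were higher in the column of KRM RAS 1 than in any KRM Sham library, and 35 were higher than in the other KRM RAS libraries. In this column 6 genes shared the lowest value, 0.586, while the lowest values of the Sham columns were 0 to 0.0097. Of these 6, Foxp3, Eomes and Ncr1 are among the 40 and Foxp3 and Eomes among the 35, which leaves 37 and 33 genes above that value. This is the column whose values did not follow the counts of the same library (r = 0.0914), and which of the 2 columns, if either, is of another library cannot be told from these files. The share of all genes that were higher in this column in the same way was not computed. The 40 and 35 genes, or 37 and 33, are therefore not read as results about the set.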

How the results depend on the processing

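The counts of genes called moved with the processing, and the causes were not tested. With calls by a fold above 2 and an unadjusted p under 0.05, they were 9 (KRM against CD11chiMϕ, Sham), 7 (CD11chiMϕ against CD11cloMϕ, Sham), 3 (KRM against CD11chiMϕ, RAS), 28 (KRM against CD11cloMϕ, RAS), 31 and 16 (RAS against Sham in CD11chiMϕ and CD11cloMϕ) and 10, 15 and 9 (response of KRM minus CD11chiMϕ, KRM minus CD11cloMϕ and CD11chiMϕ minus CD11cloMϕ), where this rule called 12.5%, 12.6%, 20.8%, 20.3%, 8.07%, 4.37%, 18.9%, 16.4% and 5.25% of all genes. With DESeq2 they were 5, 5, 3, 15, 20, 9, 3 and 7 in the same order without the last. For RAS against Sham in KRM DESeq2 called 27, where 24.6% of all genes were. The other 11 of the 38 had no adjusted p and so were not called. For the response of KRM minus CD11chiMϕ DESeq2 called 8.64% of all genes, so that 3 of 44 is no larger a share. Shares for RAS against Sham in CD11chiMϕ and CD11cloMϕ are given above. The remaining DESeq2 counts are given without a share and are not read as results about the set. With 1 fit over all 6 groups they were 4 and 11 in the first and second comparison and 11 for CD11chiMϕ against CD11cloMϕ in RAS. In RAS 7.27% of all genes were called higher in this fit. The counts in Sham are given without a share of all genes and are not read as results about the set. With no filter they were 0 for CD11chiMϕ against CD11cloMϕ in Sham, 2 for KRM against CD11chiMϕ in RAS and 3 for the response of KRM minus CD11cloMϕ. The last was also 3 with median-of-ratios scaling. With no filter 0.483%, 6.66% and 0.338% of all genes were called in the same order. The 2 for KRM against CD11chiMϕ in RAS are thus a share no larger than that of all genes. With the replicate block they were 4 for CD11chiMϕ against CD11cloMϕ in Sham, and 0 for KRM against CD11chiMϕ in RAS, for RAS against Sham in KRM and for the response of KRM minus CD11cloMϕ. Among the Sham populations, where the numbers may pair libraries, the block changed no other call. Deviations of same-numbered libraries correlated at -0.196 to 0.325 between Sham and RAS (9 pairs), which come from different kidneys and share only a number. Between RAS populations they correlated at 0.0535 to 0.505 (10 pairs). Whether the numbers pair libraries there was not tested against pairs of different number. Without both KRM RAS 1 and CD11chiMϕ RAS 1, an alternative chosen after seeing the data, 17 were called between KRM and CD11chiMϕ in RAS. In their difference of response 1 was called. Of all genes 30.2% and 7.81% were called in these fits, in the same order.

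Leaving out 1 library at a time gave 1 to 3 calls for KRM against CD11chiMϕ, 7 to 8 for KRM against CD11cloMϕ and 0 to 3 for CD11chiMϕ against CD11cloMϕ in Sham, and 0 to 16, 0 to 6 and 9 to 26 in RAS. Of all genes 1.27% to 13.6%, 32.8% to 47.1% and 0% to 5.7% were called in these Sham fits. In RAS the shares were 0.103% to 19.6%, 0% to 23% and 2.02% to 17.3%. RAS against Sham gave 0 to 1 in CD11chiMϕ, 0 to 0 in CD11cloMϕ and 1 to 40 in KRM, and the differences of response gave 0 to 0, 0 to 6 and 0 to 0. Of all genes 0% to 0.314%, 0% and 0.204% to 50.2% were called for RAS against Sham. For the differences of response the shares were 0% to 7.4%, 0% to 16.1% and 0%. Cd3e between KRM and CD11chiMϕ in RAS was -0.48 log2 units with the block, -1.06 without both and -1.51 to 0.53 when single libraries were left out. Klrb1c there was -0.72 to 2.56 when single libraries were left out. Scaled by total counts, the sum over the 44 genes was 166 CPM in KRM Sham 3. Of the values of single genes and libraries, 411 kept direction and side of the threshold, 120 lost their call, 2 gained one, 7 changed sign (all of them Cd3e or Klrb1c between KRM and CD11chiMϕ in RAS) and 1 moved. Depth limits the low genes, since 7 of the 44 had at most 3 counts in every KRM Sham library and 14 in every CD11cloMϕ Sham library.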
